A study of Rattus norvegicus with 12 samples.

Results

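The mucosa of b/b and +/b Belgrade rats was compared here for a single quantity, the interaction of genotype and gut segment, which asks whether the b/b minus +/b difference of a transcript is the same in the jejunum as in the duodenum. All 12 of the 12 arrays of the series entered, 3 each from b/b jejunum, b/b duodenum, +/b jejunum and +/b duodenum. The Belgrade rat carries a recessive mutation (b) of Slc11a2, which encodes the divalent metal transporter DMT1. The b/b animals are homozygous and the +/b animals heterozygous, so that every group carried at least 1 mutant allele and no wild-type group was included. Mucosal scrapes were used, with 6 groups of rats, 3 per genotype, each supplying 1 jejunum and 1 duodenum array. The titles of the heterozygous duodenum arrays write the genotype as +b, which was read as +/b. The number of rats in a group, their age, sex and diet are not given in the labels, and the replicate is a group of rats. Of 31099 probe sets, 17694 were tested, those whose scaled signal averaged 100 or more across all arrays.

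Each rat group contributed the difference of its jejunum array from its duodenum array on a log2 scale, and the 3 differences of b/b rats were set against the 3 of +/b rats. An interaction below 0 therefore means that the step from jejunum up to duodenum was larger in b/b rats, or equally that the genotype difference lay higher in the duodenum. An interaction above 0 means the opposite. The same number can be read as the b/b minus +/b difference in the jejunum less that in the duodenum, and both readings are given below. Scaled signals are linear intensities after every array was brought to a 2% trimmed mean of 500, and every log2 value was taken after adding 16, which understates the differences of dim transcripts.

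Dietary iron is absorbed mainly in the duodenum, where the ferric reductase encoded by Cybrd1 reduces iron at the brush border, DMT1 carries it into the enterocyte and ferroportin, encoded by Slc40a1, releases it to the blood. Enterocytes adjust the first steps to the need for iron through hypoxia-inducible factor 2 alpha, encoded by Epas1, and through iron regulatory proteins that stabilise the transferrin receptor transcript and some DMT1 transcripts. The jejunum has the same machinery at lower levels and takes up mostly other nutrients, among them folate, vitamin A, lipids and peptides.

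At an adjusted p under 0.05 (limma with the rat group as a block, Benjamini-Hochberg over all 17694 probe sets), 2 probe sets were called, which is 0.0113% of those tested. Both had an interaction below 0. They were Cybrd1 and a probe set to which the platform annotation gives no gene (1376344_at). An unadjusted p under 0.05 (limma) was reached by 777 probe sets, 461 with an interaction above 0 (2.61%) and 316 below 0 (1.79%). The jejunum minus duodenum differences of the 3 b/b and the 3 +/b rat groups did not overlap for 1719 probe sets, or 9.72%.

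Cybrd1 (probe set 1377369_at) had signals of 226, 325 and 251 in b/b jejunum and 5752, 22240 and 20080 in b/b duodenum. In +/b rats it had 228, 174 and 268 in the jejunum and 599.8, 771 and 1157 in the duodenum. The jejunum values of both genotypes overlapped, whereas every b/b duodenum array lay above every other array of the series. The jejunum minus duodenum differences were -4.57, -6.03 and -6.24 in b/b rats, against -1.33, -2.05 and -2.04 in +/b rats. The interaction was -3.80 ± 0.40 (SE, 3 rat groups per genotype, limma adjusted p = 0.0218, 95% interval -4.69 to -2.92). On the log2(signal + 16) scale the genotypes differed by 0.24 ± 0.41 in the jejunum and by 4.05 ± 0.41 in the duodenum, a ratio of 1.18 against 16.6. The lowest b/b duodenum signal came from replicate 1, the array that stood apart from the others by rank correlation. Without that rat group the interaction was -4.32 (limma adjusted p = 0.00181).

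The second called probe set, 1376344_at, followed the same pattern. Its signals were 233, 503 and 212 in b/b jejunum and 2842, 12990 and 12210 in b/b duodenum. In +/b rats they were 243, 352 and 411 in the jejunum and 490.0, 415 and 634 in the duodenum. Again the 3 b/b duodenum arrays lay above all 9 others. The b/b jejunum signals overlapped those of both +/b groups, and every +/b duodenum array lay above every +/b jejunum array. The interaction was -4.04 ± 0.46 (limma adjusted p = 0.0223, 95% interval -5.05 to -3.02), with paired differences of -3.52, -4.65 and -5.75 in b/b rats and -0.96, -0.23 and -0.61 in +/b rats. In +/b rats the mean step of this transcript was -0.60, and that of Cybrd1 was -1.81. Both calls were lost when the rat-group block was left out (limma adjusted p = 0.252 for Cybrd1), and when b/b rat group 2 or +/b rat group 1 or 2 was left out (limma adjusted p from 0.111 to 0.194). They were also lost under quantile normalization and with a robust or trendless limma fit, and without b/b rat group 3 Cybrd1 was not called (limma adjusted p = 0.0637) while 1376344_at was.

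Slc11a2 itself, the mutated gene, has 2 probe sets, and neither passed. Since the b allele is a substitution of 1 amino acid, as background, transcript levels do not check the genotype labels. The dimmer probe set (1388059_a_at) had signals of 389, 246 and 637 in b/b jejunum and 3341, 7297 and 7824 in b/b duodenum, against 280.1, 295 and 472 in +/b jejunum and 593, 761 and 1156 in +/b duodenum. The 3 b/b duodenum arrays were again above all others, and the jejunum groups overlapped. Its interaction was -2.60 ± 0.38 (limma adjusted p = 0.155), the third smallest p of all probe sets, and the paired differences of -3.05, -4.80 and -3.59 in b/b rats did not overlap the -1.04, -1.32 and -1.26 of +/b rats. With array weights it passed (-2.75, limma adjusted p = 0.0471).

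The brighter Slc11a2 probe set (1367877_at) read 1336, 474 and 3676 in b/b jejunum and 28450, 27500 and 21650 in b/b duodenum, against 416, 618 and 1149 in +/b jejunum and 3056, 3839 and 6080 in +/b duodenum. The signals of b/b jejunum replicates 1 and 3 were above those of every +/b jejunum array. The paired differences of -4.40, -5.81 and -2.55 in b/b rats overlapped the -2.83, -2.60 and -2.39 of +/b rats through b/b replicate 3. Its interaction was -1.65 ± 0.60 (limma adjusted p = 0.965), or -2.50 without b/b rat group 3 and -0.87 without b/b rat group 2. The probe sets thus had the same sign and differed in size and spread.

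Tfrc, the transferrin receptor, which imports transferrin-bound iron from the blood side, had signals of 5232, 4393 and 6251 in b/b jejunum and 6308, 8653 and 8142 in b/b duodenum on its brighter probe set. In +/b rats the signals were 5038, 3550 and 5047 in the jejunum and 4084, 2137 and 3034 in the duodenum. On that probe set the direction along the gut was opposite. All 3 b/b rat groups had more Tfrc signal in the duodenum, and all 3 +/b rat groups had more in the jejunum. The interaction was -1.13 ± 0.23 (limma adjusted p = 0.658), with a genotype difference of 0.22 ± 0.25 in the jejunum and 1.35 ± 0.25 in the duodenum. The dimmer Tfrc probe set had -0.86 ± 0.41 with overlapping differences. On it b/b rat group 3 (0.24) and +/b rat group 3 (-0.34) had jejunum minus duodenum differences of the other sign.

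**Figure D1:**
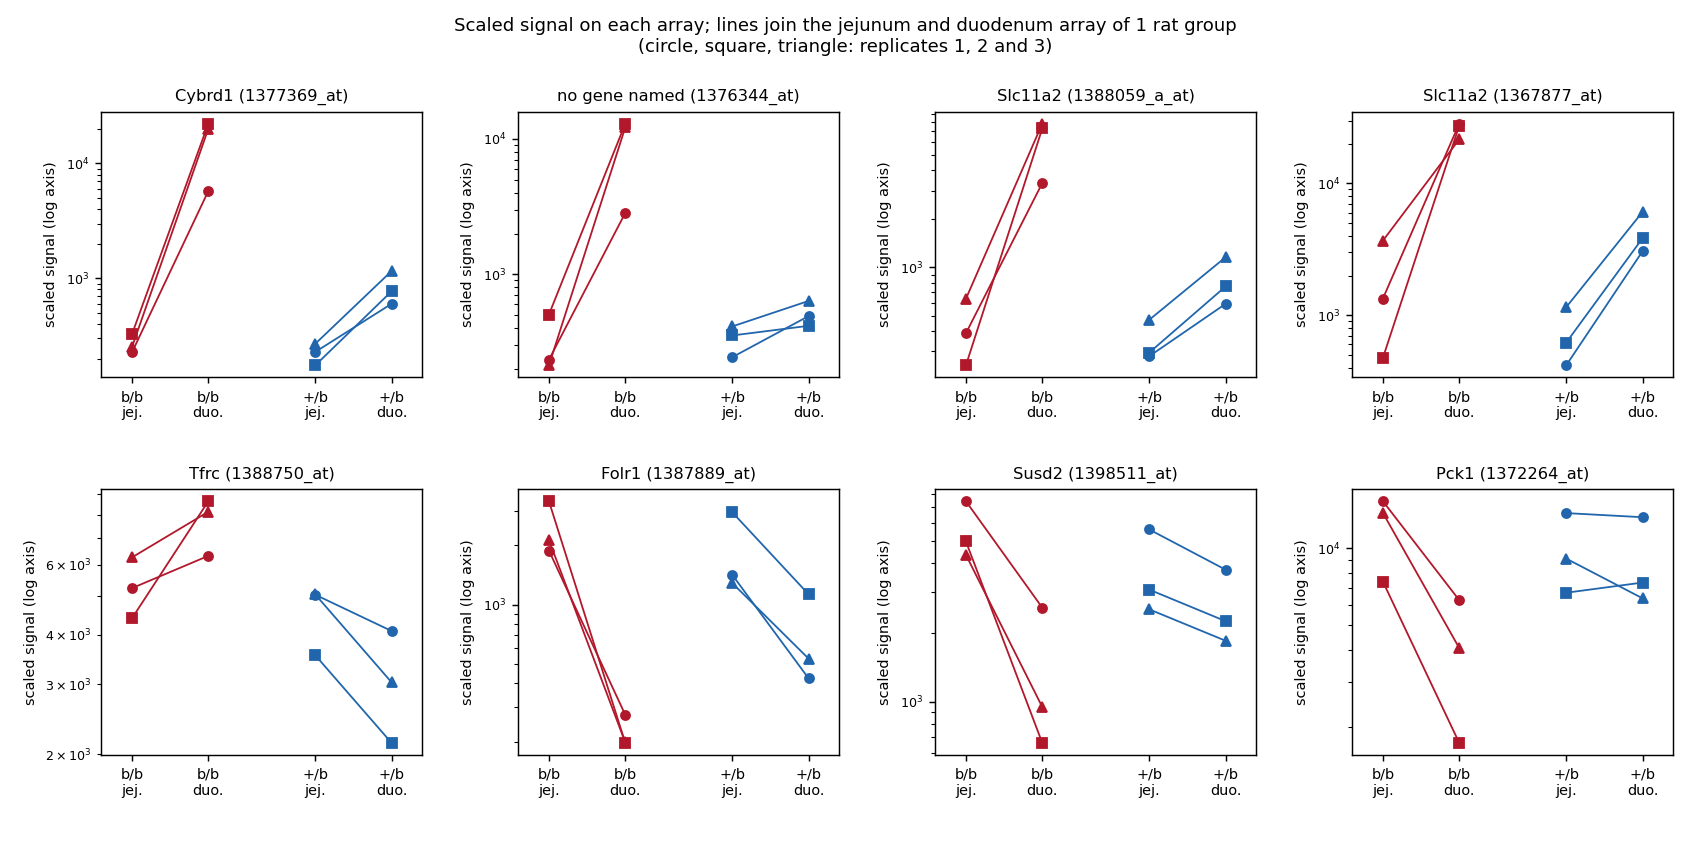
Scaled signal (log axis) on each array for 8 probe sets, with lines joining the jejunum and the duodenum array of 1 rat group, b/b rats in red on the left of each panel and +/b rats in blue on the right. In the panels of Cybrd1, of 1376344_at and of both Slc11a2 probe sets the 3 b/b duodenum arrays lie above all others, while for Folr1, Susd2 and Pck1 the b/b lines fall more steeply toward the duodenum than the +/b lines.

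Of the 12 genes listed for iron uptake 7 were measured, 1 was called, and at an unadjusted p under 0.05 (limma) 4 had an interaction below 0 and 1 above 0, with a median of -1.13. Over all 10067 genes, each on its brightest probe set, 202 were below 0 (2.01%) and 230 above 0 (2.28%) at that p, the median was -0.0033, and 49.6% lay above 0 whatever their p. The 4 below 0 at that p became 2 without b/b rat group 2 or without the block, and the median of the list was -0.61 without +/b rat group 3 and -0.23 with only +/b rat group 1 kept. Slc39a14, a zinc transporter that also carries iron, had -1.55 ± 0.64 (limma unadjusted p = 0.0345). Its +/b duodenum signals were 5450, 2949 and 639, and without +/b rat group 3 the interaction was -0.61. The 3 members above 0 were Slc46a1 (0.54), the folate transporter first described as a heme carrier, Slc39a8 (0.49), a metal transporter of the same family as Slc39a14, and Steap3 (0.59), an endosomal ferric reductase.

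The promoters of Cybrd1, Slc11a2 and Tfrc are shown because these 3 iron uptake genes had interactions below 0. That of Slc39a14, also below 0, is not shown. The hypoxia-inducible factors are known to bind the core letters ACGTG or GCGTG. Each run is the 300 bases from 250 before to 50 after the start in RefSeq (GRCr8), 5′ to 3′ on the strand of the gene, with capitals marking ACGTG or GCGTG on either strand (CACGC is GCGTG on the other strand). Pck1 is given beside them as a gene with an interaction above 0.
Cybrd1: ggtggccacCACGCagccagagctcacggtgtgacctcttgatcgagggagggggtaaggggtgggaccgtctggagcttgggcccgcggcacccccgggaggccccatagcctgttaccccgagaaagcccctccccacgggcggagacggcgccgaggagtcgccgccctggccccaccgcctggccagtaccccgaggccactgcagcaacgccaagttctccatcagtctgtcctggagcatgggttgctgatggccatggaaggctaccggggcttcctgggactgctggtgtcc
Slc11a2: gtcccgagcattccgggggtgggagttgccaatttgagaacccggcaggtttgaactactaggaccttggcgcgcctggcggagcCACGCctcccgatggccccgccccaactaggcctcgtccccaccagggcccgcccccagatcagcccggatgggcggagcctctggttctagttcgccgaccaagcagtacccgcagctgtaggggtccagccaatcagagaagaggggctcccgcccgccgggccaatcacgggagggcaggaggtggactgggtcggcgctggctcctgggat
Tfrc: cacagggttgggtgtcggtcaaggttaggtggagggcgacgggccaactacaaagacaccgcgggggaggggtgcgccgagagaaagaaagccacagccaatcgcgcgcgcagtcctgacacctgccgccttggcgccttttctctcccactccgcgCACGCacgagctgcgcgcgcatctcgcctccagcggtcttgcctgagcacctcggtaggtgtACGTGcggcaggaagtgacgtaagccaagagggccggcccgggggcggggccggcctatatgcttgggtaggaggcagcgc
Pck1: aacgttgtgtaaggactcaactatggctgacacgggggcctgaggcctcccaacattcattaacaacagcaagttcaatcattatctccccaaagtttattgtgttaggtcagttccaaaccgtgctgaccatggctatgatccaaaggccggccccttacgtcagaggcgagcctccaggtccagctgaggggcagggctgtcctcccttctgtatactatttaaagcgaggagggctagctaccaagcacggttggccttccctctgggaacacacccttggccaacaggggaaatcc
The windows lie at chr3:76342343-76342642 on the plus strand for Cybrd1, chr7:133417739-133418038 on the minus strand for Slc11a2, chr11:81690269-81690568 on the minus strand for Tfrc and chr3:182348322-182348621 on the plus strand for Pck1. For Cybrd1 (chr3:76342231-76369846) and Slc11a2 (chr7:133381878-133429921) the start used lies inside the annotated gene, so that other starts have other windows. Cybrd1 had 1 match, GCGTG 241 bases before the start, and Slc11a2 had 1, GCGTG 165 bases before it. Tfrc had ACGTG 31 bases and GCGTG 93 bases before the start, and Pck1 had no match in this window. Of 33469 promoters of this length 41.64% held at least 1 of the motifs (19.25% ACGTG, 29.7% GCGTG). Of the genes selected for naming 71 have a window, and 33 of them held a match (46.48%), so matches of this kind are common. Not every selected gene is printed here, and Slc39a8 and Steap3 were not among them.

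Iron export and storage gave less. Slc40a1, the basolateral exporter ferroportin, had 1045, 889 and 2586 in b/b jejunum and 8849, 21420 and 15910 in b/b duodenum, against 788, 2034 and 2186 in +/b jejunum and 7077, 6276 and 11390 in +/b duodenum. It was a duodenal transcript in both genotypes, and the paired differences of -3.06, -4.57 and -2.61 in b/b rats overlapped the -3.14, -1.62 and -2.37 of +/b rats. The interaction was -1.04 ± 0.47 (limma unadjusted p just under 0.05), and its other probe sets had -0.86 ± 0.46 and -0.43 ± 0.54. It was -0.46 without b/b rat group 2, -0.66 without +/b rat group 2 and -0.27 with only +/b rat group 1 kept. Heph, the multicopper ferroxidase that works with ferroportin, had 0.03 ± 0.18 (95% interval -0.37 to 0.43), with signals between 8943 and 14760 on all arrays. Of 14 listed genes of export and storage 7 were measured and 0 were called. At an unadjusted p under 0.05 (limma) 1 was below 0, Slc40a1, against 2.01% of all genes. The median was 0.15, and 5 were above 0 whatever their p, against 49.6% of all genes. Hamp, the iron hormone hepcidin, was dim in the gut (150.3, 159 and 83.8 in b/b jejunum, 105, 39.5 and 106 in +/b jejunum) and had 0.91 ± 0.63.

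Among 14 measured genes of iron sensing and cytosolic iron handling, 0 were called, and 2 were above 0 and 1 below 0 at an unadjusted p under 0.05 in limma, with a median of -0.04. At that p 2.28% of all genes were above 0 and 2.01% below 0. Without the block no member had such a p. Smad7, an inhibitor of BMP signalling, had 0.57 ± 0.22. Fbxl5, the ubiquitin ligase subunit that removes iron regulatory proteins when iron is plentiful, had 0.42 ± 0.19. In b/b rats Fbxl5 read 3867, 3735 and 3169 in the jejunum and 2328, 2090 and 2254 in the duodenum, against 2977, 3705 and 3264 in +/b jejunum and 2550, 2778 and 2935 in +/b duodenum, so that the 3 b/b duodenum arrays were the lowest of all. Ncoa4, the ferritinophagy receptor, had -2.29 ± 0.94, but its +/b duodenum signals were 12100, 9169 and 326, and without +/b rat group 3, which holds the low one, its interaction was -0.78.

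Of 12 measured genes of heme synthesis and breakdown 8 were below 0, as were 5077 of all 10067 genes, and the median was -0.22. In that list 0 were called and 1 was below 0 at an unadjusted p under 0.05 (limma), against 2.01% of all genes. Alas1, the housekeeping enzyme that starts heme synthesis, had the smallest p of them. Its signals were 4564, 3297 and 3265 in b/b jejunum and 9338, 7141 and 5635 in b/b duodenum, against 3855, 3314 and 2501 in +/b jejunum and 4297, 3825 and 2919 in +/b duodenum. The b/b duodenum arrays were the 3 highest. The interaction was -0.78 ± 0.18 (limma unadjusted p = 9.97e-04, adjusted p = 0.965), and the paired differences were -1.03, -1.11 and -0.78 in b/b rats and -0.16, -0.21 and -0.22 in +/b rats. Hmox1, heme oxygenase, had -0.59 ± 0.37 with overlapping differences.

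Hbb and Alas2 had more signal in b/b than in +/b rats in both segments, with no detectable interaction. Hbb, beta globin, had 11200, 9562 and 13460 in b/b jejunum and 16620, 11840 and 14490 in b/b duodenum, against 2757, 1708 and 2159 in +/b jejunum and 3274, 3081 and 1792 in +/b duodenum. Every b/b array was above every +/b array in both segments. The genotype difference was 2.37 in the jejunum and 2.43 in the duodenum, and the interaction -0.05 ± 0.26 (95% interval -0.63 to 0.53), so that a difference of differences beyond that interval was not seen. Alas2, the erythroid counterpart of Alas1, had 0.27 ± 0.49 (95% interval -0.79 to 1.34). Of 6 measured erythroid markers 5 had an interaction below 0, against 5077 of all 10067 genes, with a median of -0.42. Of them 0 were called, and 1 was below 0 at an unadjusted p under 0.05 (limma), against 2.01% of all genes. This was Bpgm, the red cell bisphosphoglycerate mutase, with -0.57 ± 0.23. The median genotype difference of the list was 0.0013 in the jejunum and 0.86 in the duodenum. In the jejunum it was below 0 for Slc4a1 (-0.61), Ank1 (-0.15) and Bpgm (-0.07), unlike for Hbb and Alas2.

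Alox15, a 12/15-lipoxygenase, also had more signal in b/b rats in both segments. Its signals were 689, 547 and 628 in b/b jejunum and 789, 714 and 557 in b/b duodenum, against 66.2, 18.8 and 51.3 in +/b jejunum and 9.62, 14.4 and 19.4 in +/b duodenum. All 6 b/b arrays were above all 6 +/b arrays. The genotype difference was 3.46 in the jejunum and 4.52 in the duodenum, with an interaction of -1.07 ± 0.52 (limma adjusted p = 0.965, 95% interval -2.20 to 0.07). The +/b signals lay between 9.62 and 66.2, where the added 16 compresses differences.

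The genes of the hypoxia-inducible alpha subunits had interactions of opposite sign. Epas1 had 1751, 980.5 and 2223 in b/b jejunum and 5114, 7523 and 8229 in b/b duodenum on its brighter probe set, against 2084, 943 and 1924 in +/b jejunum and 5362, 2447 and 3316 in +/b duodenum. Its interaction was -0.95 ± 0.33 (limma unadjusted p = 0.014; -0.54 without b/b rat group 2), and the jejunum means of the genotypes differed by 0.0042. The dimmer Epas1 probe set had 0.13 ± 0.59, so the probe sets did not share a sign. Hif1a, the other alpha subunit, had 3162, 3545 and 4187 in b/b jejunum and 1591, 1751 and 1756 in b/b duodenum, against 2515, 3722 and 4269 in +/b jejunum and 2098, 3027 and 4170 in +/b duodenum. The 3 b/b duodenum arrays were the lowest, and the interaction was 0.88 ± 0.19 (limma unadjusted p = 6.15e-04, adjusted p = 0.812).

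Of 32 measured genes on the list of targets of the factors 0 were called, 21 were below 0 (5077 of all 10067 genes were) and the median was -0.09. That list leaves out Cybrd1, Slc11a2 and Tfrc, which were counted with iron uptake, and its lowest interaction was -0.84. Its member with the smallest p was Pgk1, a glycolytic kinase, with -0.46 ± 0.20 (limma unadjusted p = 0.0417). The collagen prolyl hydroxylase P4ha1 had -0.84 ± 0.40, Ankrd37, an ankyrin repeat protein induced by hypoxia, -0.80 ± 0.39, and Egln3, an oxygen-sensing prolyl hydroxylase, -0.48 ± 0.26. Among the 10 measured genes of the factors and their regulators Hif1a was the member above 0 and Epas1 the member below 0 at an unadjusted p under 0.05 (limma). At that p 2.28% of all genes were above 0 and 2.01% below 0.

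Copper and calcium transport genes had 0 calls. Atp7a, the copper exporter, had 773, 863 and 1431 in b/b jejunum and 1306, 3840 and 5175 in b/b duodenum, against 725, 1096 and 1266 in +/b jejunum and 1283, 833 and 2206 in +/b duodenum. The b/b duodenum signals of replicates 2 and 3 were the highest of the series and that of replicate 1 was not. Its interaction was -1.17 ± 0.40 (limma unadjusted p = 0.0134), with paired differences of -0.75, -2.13 and -1.84 in b/b rats that overlapped the -0.81, 0.39 and -0.79 of +/b rats. It was -0.77 without +/b rat group 2, and those of its dimmer probe sets were -1.49 ± 0.84 and -0.61 ± 0.66. The metallothionein Mt2A had 0.79 ± 0.30 (0.47 without b/b rat group 2) and Mt1 0.14 ± 0.40. In all, 1 of 11 measured copper and metallothionein genes was above 0 and 1 below 0 at an unadjusted p under 0.05 (limma), with 0 called and a median of 0.01. Over all genes the shares at that p were 2.28% above 0 and 2.01% below 0.

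Of 9 measured calcium absorption genes 7 were below 0, against 5077 of all 10067 genes, with a median of -0.29. An unadjusted p under 0.05 (limma) was reached by 2, both below 0, against 2.01% of all genes, and 0 were called. That count was 0 without b/b rat group 2 or 3, without the block and with both pancreas-bearing rat groups (b/b rat group 3 and +/b rat group 2) left out, and with only +/b rat group 1 kept the median was -0.0020. Atp2b1, the basolateral calcium pump, had -0.99 ± 0.37 on its brighter probe set, with overlapping differences, and -1.87 ± 0.37 on a dim one, where the paired differences of b/b and +/b rats did not overlap. Trpv6, the apical calcium channel, had -1.22 ± 0.55, also with overlapping differences, and -0.52 without b/b rat group 2. S100g, the cytosolic calcium carrier calbindin D9k, was far higher in the duodenum of both genotypes and had -0.58 ± 0.32 (95% interval -1.29 to 0.13).

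The named genes of smallest p with an interaction above 0 were Pck1, Folr1 and Susd2, each with a lower mean in b/b than in +/b duodenum. Folr1, the folate receptor alpha, had 1884, 3360 and 2130 in b/b jejunum and 274, 197 and 198 in b/b duodenum, against 1417, 2953 and 1287 in +/b jejunum and 421, 1128 and 530.3 in +/b duodenum. It was a jejunal transcript in both genotypes, and the 3 b/b duodenum arrays were the lowest of the series. The interaction was 1.89 ± 0.32 (limma adjusted p = 0.272), with genotype differences of 0.44 ± 0.37 in the jejunum and -1.45 ± 0.37 in the duodenum.

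Susd2, a membrane protein with a sushi domain, had 7446, 4980 and 4354 in b/b jejunum and 2565, 662 and 949 in b/b duodenum, against 5613, 3074 and 2523 in +/b jejunum and 3752, 2241 and 1842 in +/b duodenum. The paired differences were 1.53, 2.88 and 2.18 in b/b rats and 0.58, 0.45 and 0.45 in +/b rats, wider apart within b/b than within +/b rats and without overlap. The interaction was 1.70 ± 0.29 (limma adjusted p = 0.28).

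Pck1, the cytosolic phosphoenolpyruvate carboxykinase of gluconeogenesis, had 15280, 7409 and 13750 in b/b jejunum and 6266, 1732 and 4072 in b/b duodenum, against 13730, 6701 and 9116 in +/b jejunum and 13230, 7344 and 6372 in +/b duodenum. In +/b rats the segments were about level, with differences of 0.05, -0.13 and 0.52, whereas b/b rats had 1.28, 2.09 and 1.75. The interaction was 1.56 ± 0.24 (limma adjusted p = 0.156), and with array weights Pck1 passed (1.64, limma adjusted p = 0.0471).

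Among 10 measured genes of vitamin B12 and folate handling 4 had an unadjusted p under 0.05 (limma), all above 0, against 2.28% of all genes above 0 at that p, and 0 were called. The count was 2 without b/b rat group 3, and 1 without the block or with both pancreas-bearing rat groups left out. Beside Folr1 these were Cubn, the receptor for the vitamin B12 complex, with 1.30 ± 0.35, the folate-processing hydrolase Ggh with 0.59 ± 0.22 and Slc46a1, the intestinal folate transporter, with 0.54 ± 0.24. Cubn had 12900, 6632 and 6856 in b/b jejunum and 1706, 376 and 381 in b/b duodenum, against 8992, 5234 and 4755 in +/b jejunum and 1155, 1406 and 893 in +/b duodenum. The 2 lowest signals were b/b duodenum replicates 2 and 3, and replicate 1 lay above the +/b duodenum arrays.

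**Figure D2:**
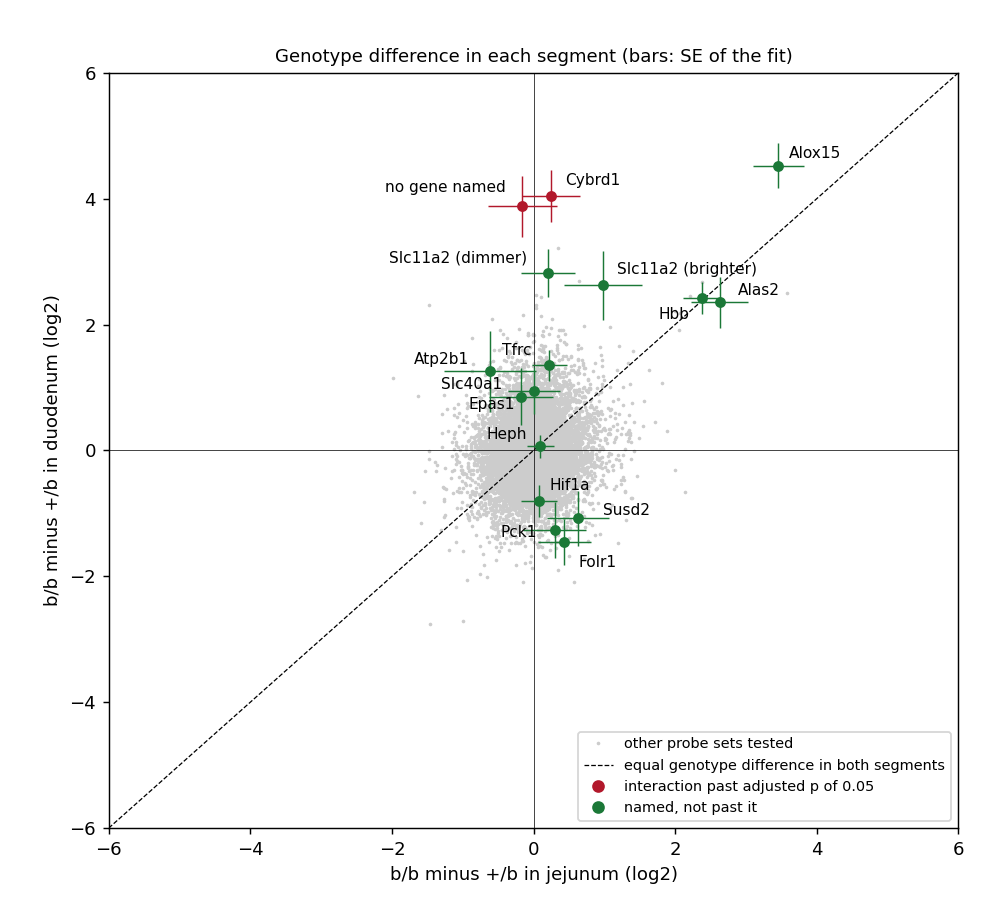
Genotype difference (b/b minus +/b, log2) in the jejunum on the x axis and in the duodenum on the y axis for all 17694 probe sets in grey, with named ones in red (called) or green and bars showing the SE of the fit without the rat-group block. Cybrd1 and 1376344_at lie near 0 on the jejunum axis and near 4 on the duodenum axis, Hbb and Alas2 near the dashed line of equal differences, and Folr1, Susd2 and Pck1 below it.

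Vitamin A uptake and processing genes all had interactions above 0, 12 of 12 measured, against 49.6% of all genes, with a median of 0.41. Of them 0 were called and 3 had an unadjusted p under 0.05 (limma), against 2.28% of all genes above 0 at that p, and these 3 became 0 without b/b rat group 3 or without the block. With median centring or quantile normalization 11 were above 0, without a rat group between 9 and 12, and with only +/b rat group 1 kept 8, with a median of 0.18. Rdh7, a retinol dehydrogenase, had 0.48 ± 0.19, with paired differences that did not overlap. Those overlapped for the fatty acid and carotenoid transporter Cd36 (1.06 ± 0.44, and 0.48 without b/b rat group 3), for Rbp4, a plasma retinol carrier (1.30 ± 0.55), and for Bco1, the enzyme that cleaves beta-carotene (0.41 ± 0.20).

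Lipid absorption genes were above 0 for 20 of 23 measured members (median 0.25), against 49.6% of all genes, with 0 called. At an unadjusted p under 0.05 (limma) 3 were above 0, against 2.28% of all genes. These 3 were Cd36, Apoc2, an activator of lipoprotein lipase (0.70 ± 0.27), and Plin2, a lipid droplet protein (0.41 ± 0.19). The 3 became 0 without b/b rat group 3 or without the block. Quantile normalization left 18 above 0 and a median of 0.16, leaving out both pancreas-bearing rat groups 16 and 0.13, and keeping only +/b rat group 1 of +/b 17 and 0.066. Brush border peptidases were above 0 for 13 of 14 (median 0.24), against the same 49.6% of all genes, again with 0 called. At that p 3 were above 0, against 2.28% of all genes, led by the dipeptidase Naaladl1 with 0.78 ± 0.25 and overlapping differences. Those 3 became 0 without b/b rat group 2, without the block and with both pancreas-bearing rat groups left out. Mep1a, a subunit of meprin, had 0.43 ± 0.18 and the dipeptidase Dpep1 0.43 ± 0.19. These lists hold bright enterocyte transcripts, and of the 16 enterocyte markers 15 were also above 0 (median 0.17), as were 66.7% of the 435 tested probe sets with a mean signal of at least 10000.

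Cytochrome P450 genes were above 0 for 14 of 20 (median 0.31), against 49.6% of all genes, with 0 called. At an unadjusted p under 0.05 in limma, 3 were above 0, Cyp3a18 (0.86 ± 0.22), Cyp4b1 (0.82 ± 0.22) and Cyp2d2 (0.76 ± 0.22), and 1 was below 0, Cyp2s1, an extrahepatic family member, with -1.14 ± 0.31. These were 15% and 5% of the list, against 2.28% and 2.01% of all genes at that p. Without the block the 3 above 0 became 0. Cyp2d2 had 1689, 764 and 1592 in b/b jejunum and 1096, 455 and 838 in b/b duodenum, against 1106, 635 and 684 in +/b jejunum and 1093, 631 and 703 in +/b duodenum. In +/b rats its paired differences were 0.02, 0.01 and -0.04, so that the segments were level within each rat group, while b/b rats had 0.62, 0.73 and 0.91.

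**Figure D3:**
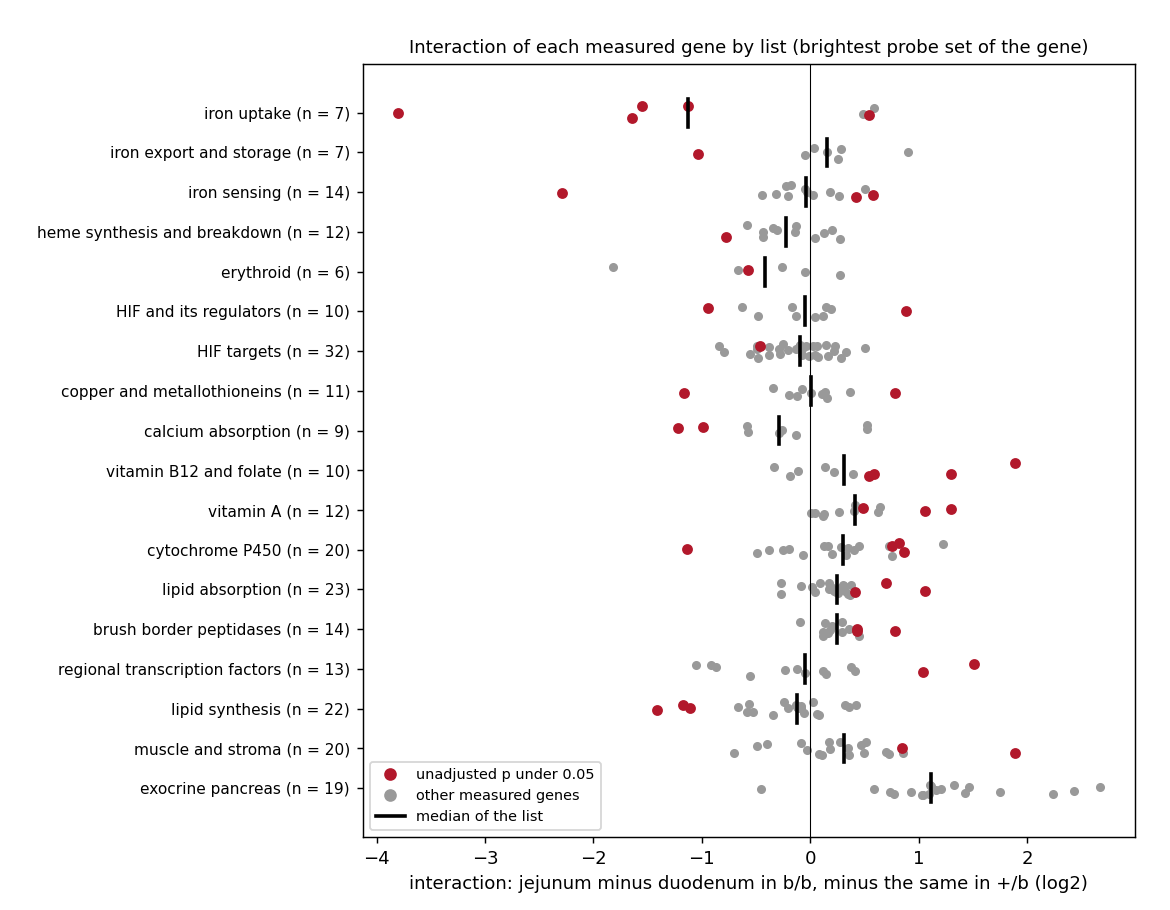
Interaction (log2) of every measured gene in 18 lists, each gene on its brightest probe set, with red points for an unadjusted p under 0.05 in limma, grey points for the others and a black bar at the median of the list. Iron uptake has its median at -1.13 with Cybrd1 at -3.80 at the far left, vitamin A genes all lie above 0, and the exocrine pancreas genes lie mostly above 0 with no red point.

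Transcription factors that mark gut regions were split, 6 above and 7 below 0 of 13 measured, with 0 called. Gata5, a factor of the small intestine, had 1.04 ± 0.29 (limma unadjusted p = 0.00384) and Osr2, an odd-skipped factor with far more signal in the jejunum of both genotypes, had 1.52 ± 0.59 (0.86 without +/b rat group 2). With only +/b rat group 1 kept of +/b, the interaction was 0.62 for Gata5 and 0.12 for Osr2. Pdx1, a factor of duodenum and pancreas, had 44.9, 38.1 and 121 in b/b jejunum and 1132, 1777 and 2707 in b/b duodenum, against 15.1, 86.3 and 127 in +/b jejunum and 969, 539 and 1126 in +/b duodenum. Both duodenum groups were far above both jejunum groups, as their labels have it, and the interaction was -1.06 ± 0.58, or -1.81 without +/b rat group 1 and -0.54 without +/b rat group 2.

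Cholesterol and fatty acid synthesis genes had 3 of 22 members below 0 at an unadjusted p under 0.05 (limma), against 2.01% of all genes. At that p 0 members were above 0, and 0 were called, with a median of -0.12. The 3 below 0 were Mvd, a mevalonate pathway decarboxylase (-1.11 ± 0.34), the desaturase Scd2 (-1.41 ± 0.49) and Sqle, squalene epoxidase (-1.17 ± 0.51). The median of the list was -0.55 without b/b rat group 1 and 0.026 without b/b rat group 2, where 8 and 2 members were below 0 at that p. Without the block none was, and none was with both pancreas-bearing rat groups left out. In that last fit 15 of the 22 lay above 0, against 6 in the main fit, and the median was 0.091.

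Smooth muscle and stroma markers lay above 0 for 15 of 20 (median 0.31), against 49.6% of all genes, with 0 called. At an unadjusted p under 0.05 (limma) 2 were above 0, against 2.28% of all genes. Lum, a matrix proteoglycan, had 1.89 ± 0.55 and the related Dcn 0.84 ± 0.37. The summed signal of the list ran from 9884 to 20720 in b/b jejunum and from 8930 to 10070 in b/b duodenum, against 12250 to 14940 in +/b jejunum and 9718 to 14180 in +/b duodenum. The median was -0.04 without b/b rat group 2, whose jejunum array had the highest sum, and 0.60 without b/b rat group 1. A lower share of a cell type in a scrape and less RNA per cell cannot be told apart in such data, and the part of scrape depth in these values was not tested.

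Among named genes chosen for the size of the interaction, most were dim. With an unadjusted p under 0.01 (limma), paired differences that did not overlap and 1 annotated gene, there were 60 probe sets above 0 and 40 below 0, and the 12 genes of largest size in each direction were taken. Beside Folr1, Susd2 and Pck1, those above 0 were Nrap, a muscle anchoring protein (2.80 ± 0.68), Fhl1, a LIM domain protein of muscle (2.65 ± 0.70), and Slc5a12, a sodium-coupled lactate transporter (2.41 ± 0.61). Lrrc8a, a subunit of volume-regulated anion channels (2.30 ± 0.59), Ino80e of the INO80 chromatin remodeller (2.21 ± 0.66), the semaphorin Sema6a (2.17 ± 0.67) and the matrix protein Ltbp2 (1.99 ± 0.61) followed. Lum and Aqp3, a water and glycerol channel (1.75 ± 0.46), completed them.

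Slc5a12 showed how rat groups differed among themselves. Its signals were 2338, 630.1 and 1285 in b/b jejunum and 1204, 52.1 and 74.6 in b/b duodenum, against 1412, 200.1 and 408 in +/b jejunum and 796, 179.6 and 454 in +/b duodenum. Replicate 1 had the highest signal in all 4 groups. Aqp3 had 865, 1164 and 1313 in b/b jejunum and 327, 156 and 118 in b/b duodenum, against 1097, 719 and 558 in +/b jejunum and 485, 618 and 309 in +/b duodenum. Its 2 lowest signals were b/b duodenum replicates 2 and 3.

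Below 0, beside Cybrd1, Slc11a2 and Atp2b1, were Igsf8, an immunoglobulin superfamily membrane protein (-3.78 ± 0.94), the kelch-like protein Klhl8 (-3.14 ± 0.78), Rdm1, an RNA-binding protein with a RAD52 motif (-2.67 ± 0.79), and Aif1l (-2.66 ± 0.78). The kinase Cdk10 (-2.42 ± 0.57), the zinc finger protein Zfp503 (-2.38 ± 0.60), Commd7 (-2.16 ± 0.57), Smim29 (-2.16 ± 0.63) and the muscle kinase Mylk2 (-2.14 ± 0.64) were the others. Of these 12 genes Cybrd1 was called, and the other 11 and the 12 above 0 were not (limma adjusted p from 0.155 to 0.965). Commd7 had 258, 559 and 282 in b/b jejunum and 433, 521 and 384 in b/b duodenum, against 486, 514 and 369 in +/b jejunum and 338, 141 and 26.3 in +/b duodenum. Its +/b duodenum signals were lowest on replicates 2 and 3, the arrays that were deposited on a lower scale. With +/b rat groups 2 and 3 left out, the interaction of Commd7 was -0.85, of Zfp503 -1.06 and of Smim29 -1.34. That of Cdk10 was -1.71, of Igsf8 -2.17 and of Rdm1 -2.28. It was larger in size than in the main fit for Klhl8 (-4.30), Aif1l (-3.31) and Mylk2 (-2.88).

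Chosen after their values were seen, 2 further probe sets were among the 8 smallest p-values. RT1-A, a class I major histocompatibility gene with many near-identical copies, had 3718, 1004 and 748 in b/b jejunum and 6694, 2213 and 1655 in b/b duodenum, against 2005, 1354 and 849 in +/b jejunum and 1741, 865 and 714 in +/b duodenum. Its interaction was -1.40 ± 0.22 (limma adjusted p = 0.156), with paired differences of -0.85, -1.13 and -1.13 in b/b rats and 0.20, 0.64 and 0.25 in +/b rats. An unannotated probe set (1387747_at) had 2.21 ± 0.42 (limma adjusted p = 0.603), with signals of 36.6, 113 and 114 in b/b duodenum against 276, 224 and 187 in +/b duodenum.

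Over all tested probe sets, the genotype difference was the larger one in the duodenum for 60.1%. Among the 777 with an unadjusted p under 0.05 (limma) that share was 75.9%, and it was 74.6% of those above 0 and 77.8% of those below 0. For 66.5% of the 777 the jejunum minus duodenum differences of b/b and +/b rats had opposite signs, for 30.1% they had the same sign and were steeper in b/b rats, and for 3.35% they were flatter in b/b rats. Over all tested probe sets these shares were 36.0%, 35.9% and 28.1%. The selection by the interaction itself favours steep and opposite differences, so that the shares among the 777 are a description. The +/b duodenum group also held the arrays scaled by 9.69 and 3.95, which multiplies their noise. The part of array noise in the larger duodenum differences was not tested.

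Exocrine pancreas markers need to be set beside these values. Their mean on the log2 scale was 13.2 on +/b duodenum replicate 2 and 8.76 on b/b duodenum replicate 3, and 5.77 to 6.61 on the other 10 arrays, with summed signals of 218800, 10520 and 1488 to 2662. Of 19 measured pancreas genes 18 had an interaction above 0 (median 1.11), against 49.6% of all genes. Of them 0 were called and 0 had an unadjusted p under 0.05 (limma). Cela3b, an elastase, read 33.6, 22.2 and 398 in b/b duodenum and 82.3, 9441 and 2.07 in +/b duodenum. The median was -1.10 without +/b rat group 2. With both pancreas-bearing rat groups left out, Cybrd1 had -3.61 and 1376344_at -3.30, and neither passed with the 4 rat groups left.

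Of 11 marker lists and 2 RNA quality ratios, none had paired differences that separated the genotypes (exact permutation test, two-sided, p from 0.2 to 1 before adjustment, where the smallest p this design allows is 0.1). Enterocyte markers averaged 13.4 to 15.0 on the log2 scale on all 12 arrays. The 3′ to 5′ signal ratio was 1.04 to 1.43 for Gapdh and 1.33 to 2.96 for actin. The array of b/b duodenum replicate 1 had a median Spearman correlation of 0.871 to the others, which otherwise had 0.895 to 0.932. As the arrays give no replicate beyond 3 rat groups per genotype, their number limits the precision of every value.

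**Figure D4:**
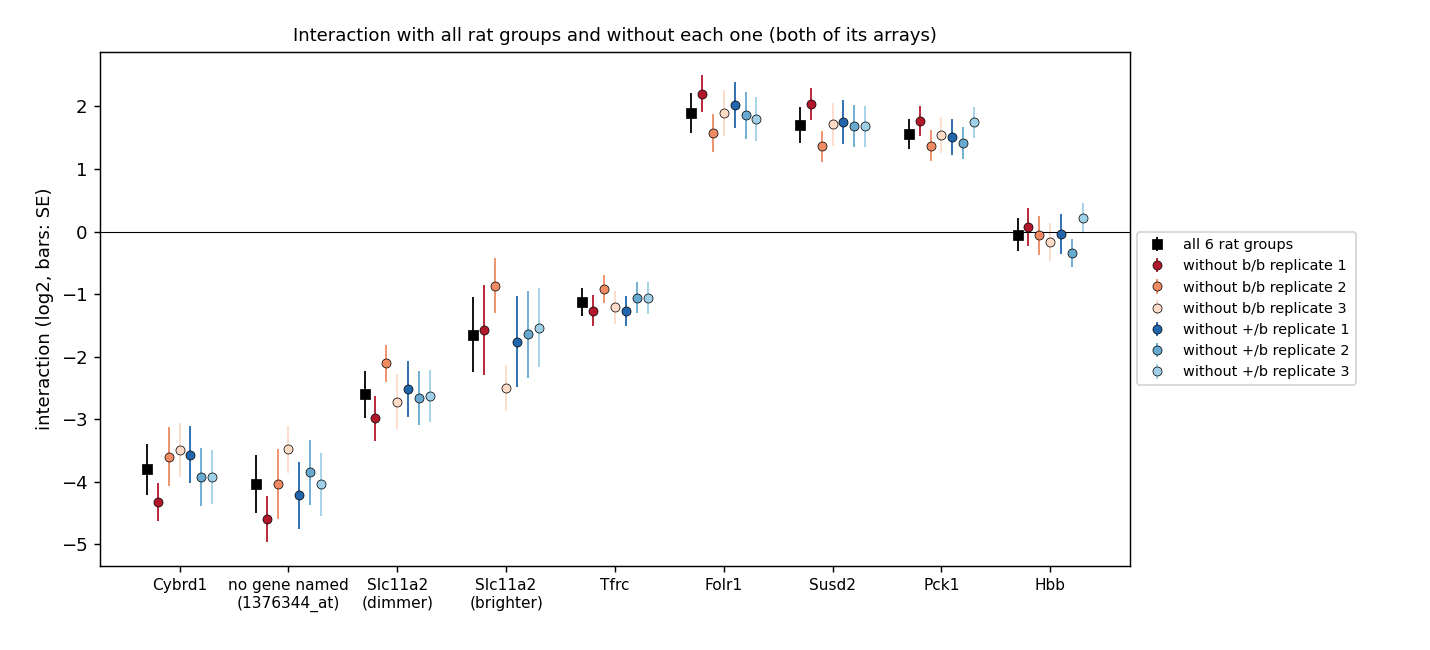
Interaction (log2, with SE) of 9 probe sets with all 6 rat groups (black squares) and after leaving out both arrays of each rat group in turn (coloured circles). Cybrd1 stayed between -4.32 and -3.49, 1376344_at between -4.60 and -3.48, the brighter Slc11a2 probe set between -2.50 and -0.87, and Hbb on both sides of 0.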

How the data were processed

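The authors deposited 1 linear intensity per probe set and array. Per the submitters' processing notes, which give no version, MAS5 made them on 10 arrays. Trizol and column-purified RNA carried a biotin label, per the labels' protocols. Of the 12 arrays, 10 had 2% trimmed means near 500, and +/b duodenum replicates 2 and 3 had 51.6 and 126.55. Every array was therefore scaled to 500 (factors of 9.69 and 3.95 for those 2), which multiplies their noise as well. The 57 control probe sets were left out. By the platform annotation 20826 probe sets had 1 gene, 436 had several and were left unnamed, and 9780 had none. Gene IDs of 20758 were found in the RefSeq table.

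The model (limma 3.58.1, R 4.3.3) was fitted to log2(scaled signal + 16), with the 6 rat groups (genotype plus replicate number) as a fixed block and a segment term per genotype, which left 4 residual degrees of freedom. eBayes used an intensity trend, the test was two-sided, and Benjamini-Hochberg adjustment ran over all 17694 probe sets at a threshold of 0.05. Genotype differences within a segment come from the same model without the block and are given with no test.

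The pairing comes from the series design, in which a group of rats supplied both tissues. Deviations of same-numbered arrays of 1 genotype from their group means correlated at 0.158 to 0.382, and those of different numbers at -0.347 to 0.124. Same-numbered arrays of different genotypes had -0.06 to 0.451.

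Named were the called probe sets, the 12 genes of largest interaction in each direction (unadjusted p under 0.01, no overlap, 1 probe set per gene), 15 genes of iron handling and related roles whatever their result, and up to 4 genes of smallest p per list described. Other names were chosen after their values were seen. Members, lists and tests were chosen with earlier results of these data known. Of 975 symbols on 45 lists, 661 were measured.

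In simulated data with 17694 probe sets, 61, 66 and 73 were given interactions of size 1, 2 and 4 (log2). The noise was independent and normal, with the residual SD of each probe set. The fit recovered 13.1%, 43.9% and 83.6% of them, with 3 false calls among 101. With so many calls the Benjamini-Hochberg threshold admits larger unadjusted p-values than with the 2 calls of the real data. These shares therefore do not give the sensitivity of the real fit. Alternatives covered the block, pseudocount, filter, scaling, variance model, array weights and each rat group in turn.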

Additional observations from a re-analysis of the deposited data

Results flagged for a closer look

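Cybrd1 was set apart because its b/b minus +/b difference was not the same in both segments by a test of the difference itself. Its interaction was -3.80 on the log2 scale, with the genotype difference near 0 in the jejunum and 4.05 in the duodenum, and all 3 b/b rat groups had a steeper step than all 3 +/b rat groups.

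The probe set 1376344_at, which has no gene in the annotation, was set apart by the same test, with an interaction of -4.04 and a genotype difference of -0.16 in the jejunum and 3.88 in the duodenum. The interactions of both probe sets come from the fit with the rat-group block, which holds 4 residual degrees of freedom. Their genotype differences within a segment come from the fit without the block.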

How the results depend on the processing

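With all probe sets tested, the count of 2 calls was kept with the rat group as a random replicate block, with a replicate block across genotypes, with pseudocounts of 1 and 64, without the filter or with a minimum signal of 300, and with median centring. It was 0 with no replicate block (Cybrd1 -3.80, 1376344_at -4.04), with no intensity trend or robust eBayes (-3.80 and -4.04 in both), and with quantile normalization (-4.003 and -4.08). It was 4 with array weights, 1 with 1 probe set per gene and 3 as deposited, where Klhl8 was added (-4.32). It was 0 with only +/b rat group 1 kept of +/b (Cybrd1 -4.28, 1376344_at -3.67) and with both pancreas-bearing rat groups left out, a choice made after seeing the data (-3.61 and -3.30). Leaving out each rat group gave 0 to 2 calls, with -4.32 to -3.49 for Cybrd1 and -4.60 to -3.48 for 1376344_at. Without the block 306 probe sets had an unadjusted p under 0.05 (limma), against 777 with it. The cause of the lost calls was not tested, beyond the fewer rat groups in the fits that left some out.

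Signs were turned for these named probe sets, none of them called. Without rescaling, the median interaction of all probe sets was -1.551, since 2 +/b duodenum arrays had been deposited on a lower scale, and values became Susd2 -0.0093, Pck1 -0.18, Alas2 -0.90, Mt1 -1.19, the dimmer Epas1 probe set -1.35, Heph -1.72, Hamp -0.47, B2m -1.50, Hfe -0.96, Smad7 -1.13, Fbxl5 -1.30, Hif1a -0.84, Mt2A -0.87, Rxra -0.87, Gata5 -0.67, Creb3l3 -1.37, Rdh7 -1.25, Cd36 -0.67, Rbp4 -0.10, Bco1 -1.34, Cyp3a18 -0.88, Cyp4b1 -0.89, Cyp2d2 -0.87, Cubn -0.39, Ggh -1.15, Slc46a1 -1.20, Apoc2 -1.05, Plin2 -1.33, Naaladl1 -0.95, Mep1a -1.31, Dpep1 -1.30, Enpep -1.30, Dcn -0.69, Col6a1 -0.69, Myh11 -1.16, Pnliprp2 -0.69. Relative to that shift, most of them lay above 0. With only +/b rat group 1 kept, values were Atp7a 0.30 and 0.12 on its dimmer probe sets, the dimmest Slc40a1 probe set 0.52, Alas2 -0.48, the dimmer Epas1 probe set -0.50, Heph -0.21, B2m -0.0067, Hfe -0.86, Ank1 0.072, Pdx1 0.45, Ctrc -0.35 and Pnliprp2 -0.76. With both pancreas-bearing rat groups left out they were Mt1 -0.026, the dimmer Epas1 probe set -0.39, Rxra -0.044 and Pnliprp2 -0.28. Quantile normalization gave -0.024 for the dimmer Epas1 probe set, 0.073 for Hbb and -0.0036 for Heph, and a pseudocount of 64 gave -0.016 for that Epas1 probe set. Over the fits without 1 rat group the ranges were the dimmer Epas1 probe set -0.50 to 0.49, the third Atp7a probe set -0.98 to 0.10, Ctrc -0.51 to 2.97, Pnliprp2 -0.24 to 1.78, Alas2 -0.22 to 0.65, Hbb -0.34 to 0.22, Heph -0.12 to 0.16, Hfe -0.22 to 0.86. Among the probe sets named, pancreas genes had the widest ranges of these fits (Cela3b 0.25 to 4.47).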
